A study of Mus musculus with 18 samples.

Results

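The genes described here are 39 genes of the skeletal muscle sarcomere and of the calcium store and energy supply that serve it, out of 55469 genes counted in RNA from mouse prostate. They were chosen by name when their levels and differences in these same 18 libraries were already known. Their levels and changes are therefore given as a description. Where fits over all genes called some of them, the calls are counted beside the share of all genes. In no comparison is support drawn from how many of them moved or were called. By role, 8 build the thin filament, 5 are myosin light chains or thick filament proteins and their kinase, 11 belong to the Z-disc and the titin scaffold, 9 handle calcium and 6 supply energy.

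The ventral and lateral prostate lobes came from C56NL/6N mice of 10 or 30 weeks, with 3 libraries for each of 3 genotypes at each age. WT mice were ELAC2+/+. KO mice were ELAC2-/- in the prostate only, where Cre driven by the probasin promoter (Pb-Cre) removed exon 8 from both alleles, so that muscle cells were not the target of the deletion. A537T mice carried the variant ELAC2A537T on both alleles in every tissue. Mice crossed to the TRAMP tumour line were not analysed here. According to the labels, the lobes were dissected in saline after the seminal vesicles, the bladder, the urethra and adhering fat and connective tissue had been taken off. The 3 WT libraries of an age serve as controls for both mutant lines of that age, and the p-values given below measure only the spread between these libraries.

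Skeletal muscle contracts when thick filaments of myosin slide along thin filaments of actin, which are anchored at the Z-disc. Calcium released from the sarcoplasmic reticulum binds troponin C and frees the thin filament, and a calcium pump then returns it to the store. Fast and slow fibres use different genes for many of these proteins, so the ratio of a fast to a slow isoform describes what kind of fibre an RNA sample holds. Prostate glands are wrapped in smooth muscle, which uses other isoforms of most of these proteins, while striated muscle lies around the urethra and in the pelvic floor. In a bulk sample, fewer cells of a type and less RNA per cell cannot be told apart.

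Libraries held 6569642 to 11225281 reads, recovered from the deposited normalized counts. Elac2, the targeted gene, was counted in every library, from 80 to 206 reads or 10.3 to 22.4 CPM (reads scaled to a library of 1000000), and counts over the whole gene cannot show whether exon 8 was present. For Elac2 the log2 fold change of KO was -0.31 at 10 weeks (limma adjusted p = 0.325) and -0.43 at 30 weeks (0.478), and that of A537T was 0.19 (0.796) and -0.23 (0.658). The prostate epithelium genes, led by Sbp, Spink1 and Pbsn, took 4366 CPM in KO library 15AF and 25338 to 147038 CPM in the other 17 libraries. The 8 seminal vesicle genes took 6.32 to 10.3% of reads in 7 libraries (13AF, 14AF, 15AF, 4AF and 6AF of KO, 7AF and 9AF of A537T), 4.64% in 10AF, 1.76% in 11AF and no more than 0.191% in the other 9.

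The 39 genes together took 3.50%, 5.76% and 11.1% of all reads in WT libraries 10AF, 11AF and 12AF at 10 weeks. In KO at 10 weeks they took 0.0705% in 13AF, 1.80% in 14AF and 0.0660% in 15AF. In A537T they took 3.92%, 2.91% and 1.40% in 16AF, 17AF and 18AF. All 3 KO libraries lay under the lowest WT library, whereas A537T library 16AF lay above WT library 10AF. At 30 weeks the share was 0.0662%, 0.0167% and 0.0319% in WT (1AF, 2AF and 3AF), 0.0620%, 0.0440% and 0.0527% in KO (4AF, 5AF and 6AF), and 0.0458%, 0.0120% and 0.0577% in A537T (7AF, 8AF and 9AF). No group stood apart at this age, and every 30-week library held less than 18AF, the lowest of the 7 libraries that passed 1% at 10 weeks. Shares across ages come from tables that were normalized separately, so they are given as parts of each library and were not tested.

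**Figure D1:**
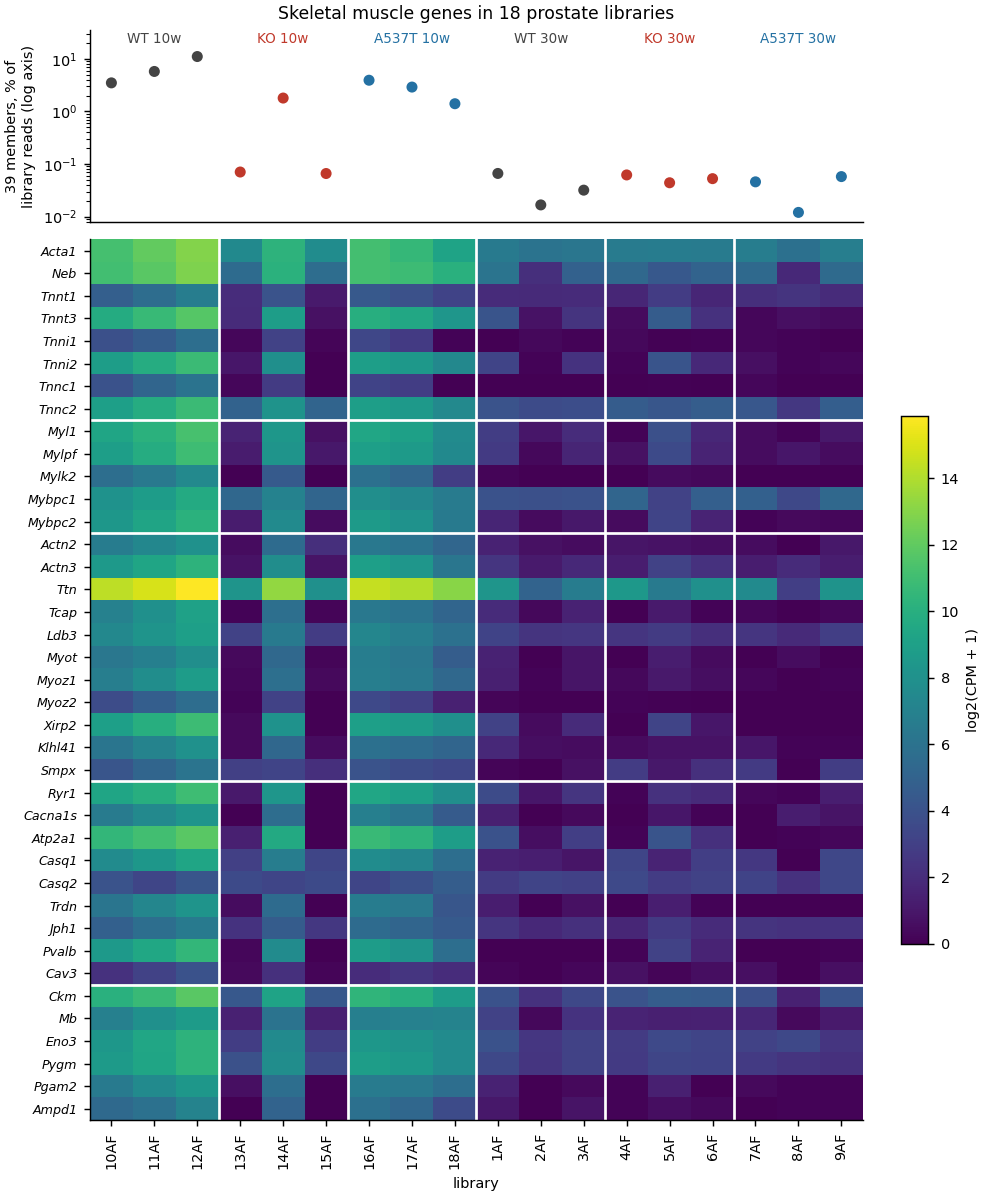
The upper panel shows the percent of library reads on the 39 muscle genes in each of 18 libraries on a log axis, and the lower panel shows log2(CPM + 1) of every gene (rows, ordered by role) in the same libraries. The 7 libraries with 1.40 to 11.1% are 10AF, 11AF, 12AF, 14AF, 16AF, 17AF and 18AF, and the other 11 lie between 0.0120 and 0.0705%.

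Titin, the giant spring of the sarcomere, accounted for much of these reads because of its length. Ttn took 54.9 to 57.6% of the reads of the 39 genes in the WT libraries at 10 weeks, with an exon length of 116825 bases. Without it the share of the other 38 at 10 weeks ranged from 1.48 to 4.99% in WT. In KO it lay between 0.0402 and 0.791%, and in A537T between 0.543 and 1.58%. Per kilobase of exon, the highest mean levels in WT at 10 weeks were those of Acta1 with 3135 CPM per kb, Tnnc2 with 1364, Tnnt3 with 1252 and Mylpf with 1057. Ttn stood at 321 CPM per kb, and the lowest were Cav3 at 7.72 and Casq2 at 5.13. The highest levels per length were thus those of skeletal actin and of fast-fibre troponins and light chain.

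The promoters of 28 of the 39 genes were found in RefSeq (GRCm38.p6), and no match was found for Neb, Tnnt3, Tnni2, Mylk2, Actn3, Tcap, Myot, Myoz1, Trdn, Jph1 and Ampd1. In the 250 bases before the start of transcription, 15 of the 28 held CAGCTG, an E-box that reads the same on both strands, against 14.7% of 27025 genes. The second E-box searched, CAGGTG on either strand, was in 8 of the 28, against 19.4% of all genes. A MEF2 site was in 7 (1.99% of all genes) and a CArG box, the binding sequence of serum response factor, in 2, Acta1 and Ldb3 (1.62% of all genes). Each motif was counted on its own, whether or not it overlapped another, and a match is a description of the letters only. The promoters of 4 genes are shown because their genes differ in the data below: Acta1 and Pgam2 followed the other muscle genes, Casq2 did not, and Tnnc1 was lost from a library that kept its fast partner. Capitals mark the E-boxes, the MEF2 sites and the CArG box, and each sequence reads 5′ to 3′ towards the gene.
Acta1 (chr8:123894776-123895025, reverse strand): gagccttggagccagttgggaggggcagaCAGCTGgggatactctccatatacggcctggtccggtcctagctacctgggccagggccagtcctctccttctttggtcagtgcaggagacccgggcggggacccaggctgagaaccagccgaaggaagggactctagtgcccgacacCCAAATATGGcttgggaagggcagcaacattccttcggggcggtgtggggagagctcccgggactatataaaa
Pgam2 (chr11:5803797-5804046, reverse strand): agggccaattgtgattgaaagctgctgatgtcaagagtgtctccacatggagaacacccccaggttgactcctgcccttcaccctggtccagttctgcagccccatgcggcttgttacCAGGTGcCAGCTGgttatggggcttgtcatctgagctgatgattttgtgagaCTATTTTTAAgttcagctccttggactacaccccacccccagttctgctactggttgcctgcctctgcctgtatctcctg
Casq2 (chr3:102086165-102086414, forward strand): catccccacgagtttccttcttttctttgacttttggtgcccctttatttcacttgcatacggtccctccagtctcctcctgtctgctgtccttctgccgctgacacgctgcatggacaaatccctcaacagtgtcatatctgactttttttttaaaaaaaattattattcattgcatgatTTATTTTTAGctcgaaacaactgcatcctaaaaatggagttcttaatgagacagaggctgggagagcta
Tnnc1 (chr14:31208062-31208311, forward strand): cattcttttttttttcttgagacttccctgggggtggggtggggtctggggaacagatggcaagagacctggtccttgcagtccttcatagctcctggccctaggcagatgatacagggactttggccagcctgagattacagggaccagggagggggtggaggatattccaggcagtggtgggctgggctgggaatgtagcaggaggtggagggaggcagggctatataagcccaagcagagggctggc
The Acta1 window held a CAGCTG whose first base lies 221 bases before the start and a CArG box at 73. The Pgam2 window held CAGGTG at 132, CAGCTG at 125 and a MEF2 site at 80. The Casq2 window held a MEF2 site at 69 and no E-box of these letters, and the Tnnc1 window held none of the 4 motifs.

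KO and WT at 10 weeks were compared to ask which genes differ when ELAC2 is lost from young prostate. Changes are differences between group means of log2 normalized counts to which 1 was added. The added 1 understates the change of low genes, while a mean of logs gives much weight to single libraries with few reads. All 39 genes had lower mean log2 levels in KO. Their median was -5.86, beside -0.01 over all 15089 genes tested, and the values ran from -8.84 for Atp2a1 to -0.61 for Casq2. In 38 of the 39 every KO library lay below every WT library, against 14.3% of all genes in that direction, and Casq2 was the exception. With limma, 38 had an unadjusted p under 0.05 and were lower (11.5% of all genes), but none passed after Benjamini-Hochberg adjustment, with limma or with edgeR, where 0% of all genes passed. With DESeq2, 2 of the 39 passed, Mybpc1 and Smpx (3.53% of all genes passed as lower). These genes were chosen on this contrast, so nothing is read from these counts. Within KO, 38 of the 39 were highest in 14AF. Without 14AF the median was -7.48, and limma called 36 of the 39 and 185 of 15082 genes. Without 10AF limma called 14 of them, and 2886 of 15044 genes. With edgeR and DESeq2 the median was nearer to 0, at -3.63 and -3.65. The size of the largest limma values thus depends on 13AF and 15AF, where Atp2a1 had 14 and 0 reads, and on the 1 added.

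For the thin filament genes the median in KO at 10 weeks was -5.01. Acta1, the actin of skeletal muscle, stood at 2365, 4250 and 7831 CPM in WT libraries 10AF, 11AF and 12AF, at 189, 1233 and 209 CPM in KO libraries 13AF, 14AF and 15AF, and at 2258, 1544 and 593 CPM in A537T libraries 16AF, 17AF and 18AF. Its change was the smallest of the 8 in KO, -3.76 with a standard error of 0.85. Neb, nebulin, which spans the thin filament, had 2181, 3699 and 7271 CPM in WT and 45.8, 1120 and 50.2 CPM in KO. Fast troponins T and I were nearly absent from 13AF and 15AF. Tnnt3, fast troponin T, had 889, 1670 and 3388 CPM in WT but 25, 3131 and 4 reads in 13AF, 14AF and 15AF. Tnni2, fast troponin I, had 8, 1691 and 0 reads there. Tnnc2, the fast calcium sensor troponin C, kept 264, 1990 and 221 reads, while it had 4150, 9329 and 18831 reads in WT, close to the 3775, 9305 and 18730 of Tnni2.

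Among thick filament genes the median in KO at 10 weeks was -7.10. Myl1 and Mylpf, the fast alkali and regulatory light chains, had log2 fold changes of -7.46 (standard error 2.17) and -7.10 (2.10). Mylk2, the kinase of the skeletal light chain, had 433, 863 and 1824 reads in WT and 0, 153 and 0 in KO. Mybpc2, the fast myosin-binding protein C, had 11, 1344 and 3 reads in KO, against 2802, 6320 and 11676 in WT. Mybpc1, its slow-type paralogue, kept 338, 919 and 229 reads, and its fold change was -3.24 (0.67). Mybpc1 thus took 41.5 to 44.0% of the reads of the pair in WT, 40.6% in 14AF, 96.8% in 13AF and 98.7% in 15AF.

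The Z-disc and titin genes had a median of -6.15. Ttn had 20144, 31685 and 60801 CPM in WT and 303, 10068 and 252 CPM in KO. Xirp2, an actin-binding repeat protein of muscle attachments, had 3, 1894 and 0 reads in KO against 4085, 10345 and 19049 in WT, and the lowest fold change of the group (-8.78, standard error 2.67). Actn3, the alpha-actinin of fast fibres, had a log2 fold change of -7.17 and Actn2, the alpha-actinin of all fibres and heart, of -5.34. Tcap, which caps titin at the Z-disc, had 1 read each in 13AF and 15AF, and its fold change was -7.56. The smallest change was that of Smpx, a small muscle protein, with -2.75 (0.62), and it had 60, 59 and 23 reads in 13AF, 14AF and 15AF. Myot, Myoz1, Myoz2, Ldb3 and Klhl41 lay between -4.39 (Ldb3) and -6.94 (Myoz1).

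The calcium genes spread most widely, around a median of -6.80. Atp2a1, the calcium pump of fast fibres, had 1468, 2169 and 3670 CPM in WT and 14, 5597 and 0 reads in KO libraries 13AF, 14AF and 15AF. Ryr1, the release channel, had 10, 2280 and 0 reads there, and Cacna1s, the voltage sensor that opens it, 0, 356 and 0. Pvalb, the calcium buffer parvalbumin of the fastest fibres, had 2, 1395 and 0 reads. Trdn, triadin, which ties the channel to the store, had 4, 319 and 0. Jph1, which holds the membranes of the triad together, changed less, with 34, 163 and 33 reads and a log2 fold change of -2.91 (standard error 0.78). Casq1, the calcium-binding protein of the fast store, had 61, 719 and 58 reads (-4.45), and Cav3, muscle caveolin, 3, 25 and 1.

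Casq2, the calsequestrin of heart and slow fibres, did not move with the others. It had 15.9, 8.89 and 17.3 CPM in WT, 10.9, 9.05 and 10.8 CPM in KO and 9.05, 13.7 and 24.7 CPM in A537T at 10 weeks, with overlapping groups. Its log2 fold changes were -0.61 (standard error 0.31) in KO and 0.00204 (0.41) in A537T. Over the 18 libraries its level spanned 6.36-fold, from 3.88 CPM in 8AF to 24.7 CPM in 18AF, while the summed level of the 39 genes spanned 920-fold.

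The energy genes had the narrowest range in KO at 10 weeks, from -6.93 for Pgam2 to -4.66 for Pygm. Ckm, muscle creatine kinase, had 1106, 1783 and 3583 CPM in WT and 19.9, 595 and 19.6 CPM in KO, a log2 fold change of -5.17 (standard error 1.36). Mb, the oxygen store myoglobin, had 122, 251 and 426 CPM in WT and 1.73, 66.5 and 1.67 CPM in KO. Eno3 and Pgam2, muscle isoforms of glycolytic enzymes, had fold changes of -5.25 and -6.93. Pygm, which breaks down muscle glycogen, kept 122, 1506 and 64 reads in KO. Ampd1, the AMP deaminase of muscle, had 0, 223 and 0 reads.

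**Figure D2:**
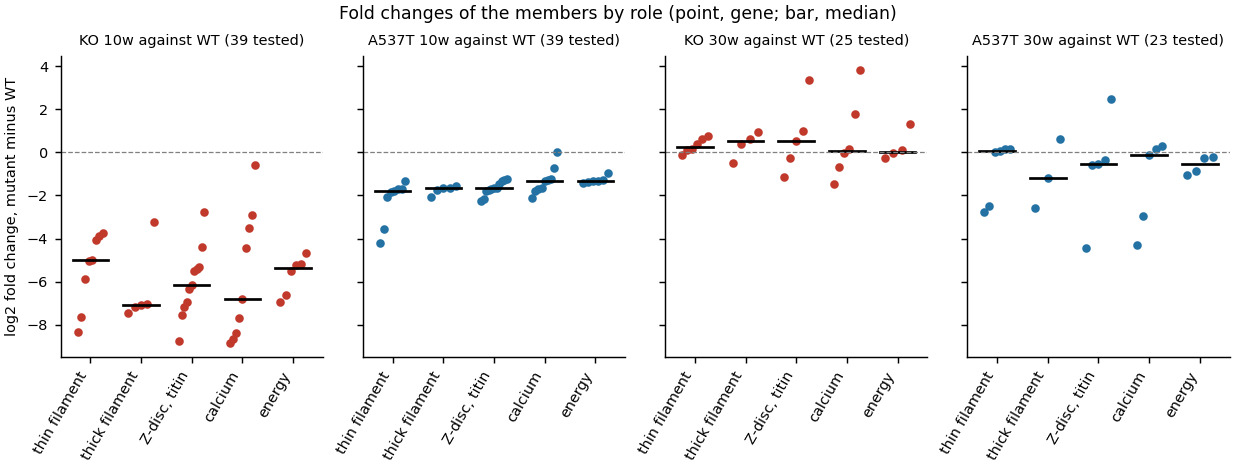
Log2 fold change against WT of each muscle gene that reached a mean normalized count of 10 (points), by role, with the median of the role (bars), in the 4 comparisons. At 10 weeks the medians of the roles in KO lie between -7.10 and -5.01 and those in A537T between -1.81 and -1.32, and at 30 weeks the points spread on both sides of 0.

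In A537T at 10 weeks 38 of the 39 genes had lower mean log2 levels than WT, with a median of -1.65 beside 0.01 over all 15131 genes. In 8 of them every A537T library lay below every WT library (6.34% of all genes): Tnnt1, Tnni1, Tnnc1, Mybpc1, Actn2, Tcap, Klhl41 and Smpx. With limma, 24 had an unadjusted p under 0.05 and were lower (3.67% of all genes), and none passed the adjustment with limma or edgeR, where 0% of all genes passed. DESeq2 called 6, Tnnt1, Mybpc1, Actn2, Tcap, Klhl41 and Smpx (0.41% of all genes passed as lower). The lowest values were those of slow-fibre genes, -4.22 for Tnnc1, slow troponin C (standard error 1.61), and -3.55 for Tnni1, slow troponin I (1.36). Tnnc1 had 69, 59 and 0 reads and Tnni1 had 79, 49 and 1 in 16AF, 17AF and 18AF. The size of both values thus depends on library 18AF and on the 1 added before taking logs. The others, apart from Casq2, ran from -2.26 for Tcap to -0.75 for Jph1. Among them, Atp2a1, Ttn, Pygm, Ldb3, Ckm and Ryr1 all lay between -1.32 and -1.29. After Casq2 and Jph1, Mb had the value nearest 0, -0.94, with 116, 126 and 135 CPM in 16AF, 17AF and 18AF. The median was -1.07 without 18AF and -1.10 without 12AF.

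Within WT and within A537T at 10 weeks, nearly all of the 39 genes had the same order of libraries. In 38 of 39 genes the WT level rose in the order 10AF, 11AF, 12AF, with a median ratio of 12AF to 10AF of 3.49 and values from 1.09 for Casq2 to 4.35 for Tnnc1. In 36 of 39 the A537T level went down in the order 16AF, 17AF, 18AF. In KO 14AF was highest for 38 of the 39, but 13AF and 15AF had no common order: Acta1, Neb, Tnnc2 and Jph1 had more CPM in 15AF, and Ttn, Mybpc1, Tnnt3 and Pygm more in 13AF. Over the 18 libraries, Pearson's r between log2(CPM + 1) of a gene and that of the sum of the others had a median of 0.971, from 0.651 for Casq2 to 0.996 for Ckm, and 35 of the 39 exceeded 0.9. This r spans 2 separate sets of libraries, 7 above 1% and 11 under 0.1%, and all its points share their libraries. Within the 7 the median r was 0.980, with Casq2 at -0.16, the other 38 genes between 0.835 (Mb) and 0.999 (Tnnt3), and Spearman's rho over all 18 had a median of 0.821. Within the 11 the median r was 0.242, and only Neb and Ckm exceeded 0.9.

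Reads per 100 reads of Ckm, the gene most like the sum, show how closely proportions were kept. Among the 3 WT libraries at 10 weeks, the highest proportion exceeded the lowest by a median factor of 1.19 over the other 38 genes, and only Casq2 exceeded a factor of 1.5, with 2.97. Over the 7 libraries above 1% the median factor was 1.73, and 14 genes exceeded 2. Ryr1 kept its proportion best, between 51.6 and 58.4 reads per 100 of Ckm, and Ttn lay between 1693 and 1972. KO library 14AF, with 48.1 reads of Tnnc2, 56.1 of Myl1 and 33.7 of Pvalb per 100 of Ckm, lay near the WT libraries, which had 45.8 to 51.8, 58.6 to 68.1 and 34.8 to 40.9. A537T library 18AF differed from the other 6 in several genes. It had 11.9 of Pvalb against 28.8 to 40.9 in the other 6 libraries, 1.47 of Mylk2 against 3.70 to 5.02, and 4.22 of Trdn against 6.51 to 8.77. It had 31.1 of Mb against 8.79 to 14.1, and 5.66 of Casq2 against 0.484 to 1.52. It held the lowest proportion of the 7 libraries for 14 genes and the highest for 11, while 16AF held the lowest for 14 and the highest for 2. The choice of Ckm as the denominator was made after its values were seen.

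**Figure D3:**
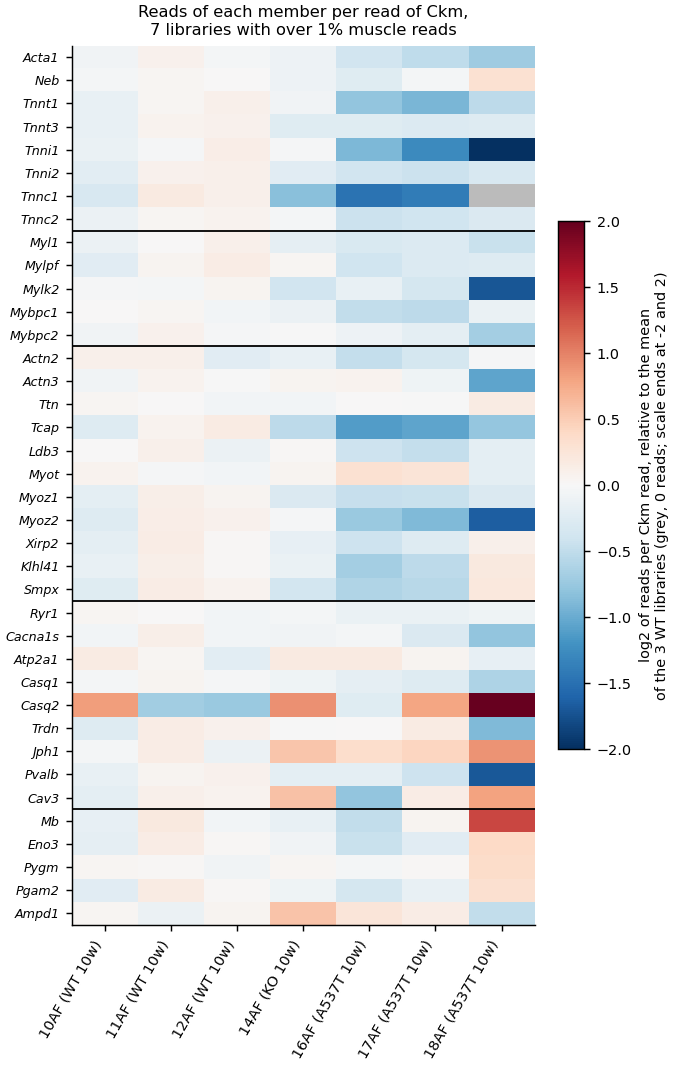
Reads of 38 muscle genes per read of Ckm in the 7 libraries with over 1% muscle reads, as log2 of the ratio to the mean of the 3 WT libraries (blue lower, red higher, grey 0 reads). The 3 WT columns are pale except for Casq2, and 18AF holds the darkest cells, with Tnni1, Mylk2, Myoz2 and Pvalb lower, Casq2 and Mb higher and Tnnc1 at 0 reads.

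The fast and slow partners differed between libraries in a way that the sum does not show. Slow troponin T (Tnnt1) made up 2.98% of the reads of Tnnt3 and Tnnt1 in 10AF, 2.94% in 11AF and 3.02% in 12AF, and 3.33% in KO library 14AF (exact 95% binomial interval 2.74 to 4.01%). In A537T it made up 2.06% in 16AF (1.77 to 2.38%), 1.93% in 17AF (1.61 to 2.28%) and 2.49% in 18AF (1.93 to 3.16%). These Clopper-Pearson intervals cover counting error only. The 3 WT libraries thus agreed within counting error. All A537T libraries had a lower share than all WT libraries, but the interval of 18AF includes the WT shares. Slow troponin I (Tnni1) made up 2.50 to 2.83% of its pair in WT, 3.09% in 14AF, 1.89% in 16AF and 1.52% in 17AF. In 18AF it had 1 read beside 1303 of Tnni2, a share of 0.0767% (0.00194 to 0.427%). Slow troponin C (Tnnc1) made up 2.92 to 3.70% in WT, 1.97% in 14AF (1.41 to 2.67%), 1.67% in 16AF and 1.73% in 17AF. In 18AF it had 0 reads beside 1374 of Tnnc2, a share with an exact upper limit of 0.268%, where 3 reads of the pair's total would be 0.218%.

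In 18AF 3 of the 7 pairs went the other way. Myoz2, a slow calsarcin of the Z-disc, kept to the pattern of the troponins, with 9.66 to 10.3% of the pair with Myoz1 in WT, 12.0% in 14AF, 8.41% and 7.66% in 16AF and 17AF, and 4.19% in 18AF (2.31 to 6.93%). Actn2 is used by all fibres, so its share of the pair with Actn3 is not a share of slow fibres. Actn2 made up 17.2 to 21.1% of the reads of Actn3 and Actn2 in WT, 14.1% and 16.5% in 16AF and 17AF, and 32.9% in 18AF (29.8 to 36.2%). Mybpc1 made up 41.5 to 44.0% of its pair with Mybpc2 in WT, 36.0% and 36.9% in 16AF and 17AF, and 52.0% in 18AF (49.3 to 54.6%). Casq2 made up 2.52 to 7.42% of its pair with Casq1 in WT and 32.1% in 18AF (28.4 to 36.0%). So in 18AF the slow troponins and Myoz2 were low, while Actn2, Mybpc1 and Casq2 were high for their fast partners. Smooth muscle genes were also highest in 18AF, with 8868 CPM against 1007 to 6237 CPM in the other 10-week libraries. Urothelium genes were highest there too, with 448 CPM against 93.8 to 212 CPM. The part of either tissue in these ratios was not tested.

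**Figure D4:**
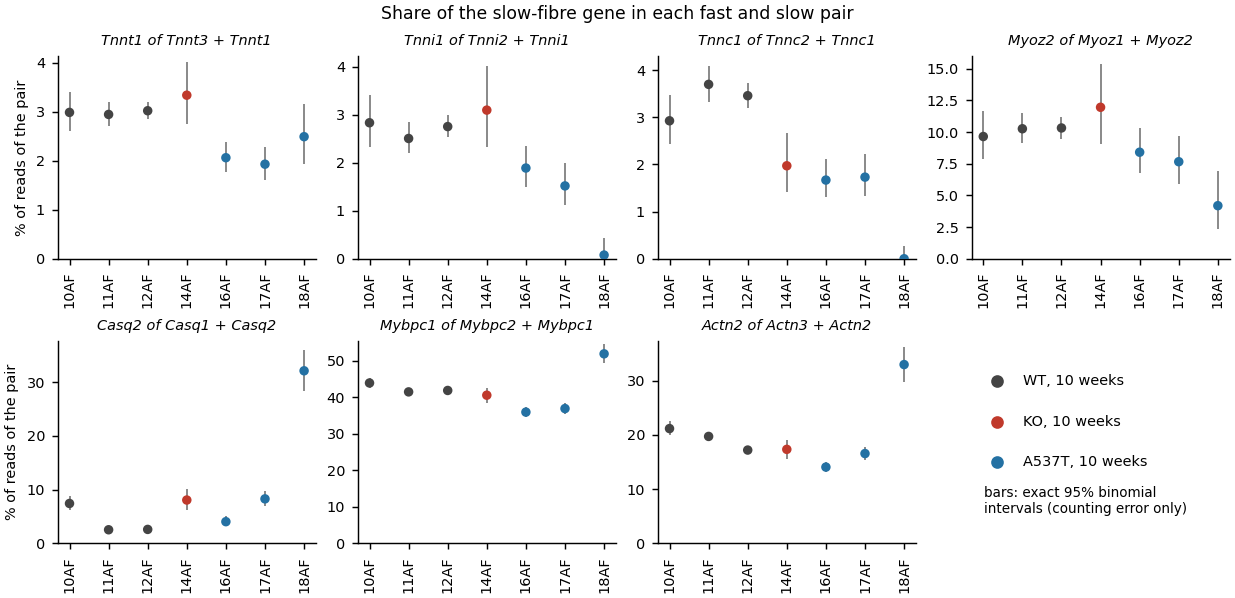
Percent of the reads of each fast and slow pair that fell on the slow gene in the 7 libraries with over 1% muscle reads. For the actinins the share is that of Actn2, which all fibres use. Bars are exact 95% binomial intervals and colours give the genotype. In 16AF and 17AF the share lies below all 3 WT libraries for the troponins, Myoz2, Mybpc1 and Actn2, and 18AF is near 0 for Tnni1 and Tnnc1. The intervals of Myoz2 in 16AF and 17AF and of Actn2 in 17AF reach WT shares.

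At 30 weeks few reads remained. In KO 25 of the 39 genes reached a mean normalized count of 10, and in A537T 23. The others had too few reads to be compared at this depth, and 5 genes had under 10 reads in every 30-week library. Of the 25 tested in KO, 16 were higher and 9 lower than WT, with a median of 0.16 beside -0.01 over all 14729 genes. In 5 of them, Acta1, Tnnc2, Smpx, Pvalb and Ckm, every KO library lay above every WT library (7.92% of all genes in that direction). With limma 6 had an unadjusted p under 0.05 and were higher, those 5 and Casq1 (5.56% of all genes), and none passed the adjustment with limma or edgeR (0% of all genes). DESeq2 called Smpx and Pvalb as higher (1.32% of all genes). Acta1 had 92.5, 65.3 and 74.5 CPM in WT and 98.3, 101 and 97.8 CPM in KO. Ckm had 14.9, 3.82 and 9.66 CPM in WT and 15.6, 24.6 and 22.5 CPM in KO. Pvalb was at 0 reads in all 3 WT libraries and had 1, 89 and 16 reads in KO, at least 28.9-fold higher with the floor of 3 reads over the WT group, and at least 10.1-fold without 5AF. The median was 0.63 without 1AF, -0.20 without 2AF and -0.07 without 5AF, and without 5AF limma called 4 of 24 genes, all higher, and 944 of 14732 genes in all.

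In A537T at 30 weeks 15 of 23 genes were lower and 8 higher, with a median of -0.37 beside -0.01 over all 14789 genes. Tnnt3, Myl1, Xirp2 and Atp2a1 had every A537T library below every WT library (9.4% of all genes). With limma 6 had an unadjusted p under 0.05 and were lower, those 4 with Ryr1 and Pygm (6.28% of all genes), and none passed the adjustment with limma or edgeR (0% of all genes). DESeq2 called 4 as lower, Tnnt3, Tnni2, Xirp2 and Atp2a1 (1.01% of all genes). Atp2a1 had 164, 4 and 61 reads in WT and 0, 1 and 2 in A537T. Xirp2 had 84, 3 and 25 reads in WT and 0 in each A537T library, at least 32.9-fold lower with the floor of 3 reads over the A537T group, and at least 14.8-fold without 1AF. The median was 0.15 without 1AF and -1.03 without 2AF, and without 8AF limma called 3 of 23 genes, none of them lower, and 1224 of 14801 genes in all.

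Within the 30-week libraries the genes did not follow one order. Tnnt3 and Atp2a1, both of fast fibres, were highest in 1AF and 5AF, whereas Tnnc2 and Casq1, also of fast fibres, were highest in 9AF. Tnnt3 had 181 reads in 1AF and 271 in 5AF, against 2 to 38 in the other 7. Atp2a1 had 164 and 182 reads there, against 0 to 61. Pvalb, however, had 0 reads in 1AF and 89 in 5AF, although both libraries had similar reads of Atp2a1. Ttn had 3376 reads in 1AF and 1048 in 5AF, but also 1703 to 2731 reads in 4AF, 6AF, 7AF and 9AF, which had 0 to 30 reads of Atp2a1. Of the 39 genes, 15 were highest in 1AF and 14 in 5AF, and none in 2AF, 3AF, 6AF or 8AF.

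In the 11 libraries under 0.1%, 3 of the 7 pairs of fast and slow genes had higher slow-gene shares than in the 7 libraries over 1%, except Mybpc1 in 5AF. Tnnt1 took 15.02% of its pair in 1AF, 20.3% in 5AF and 36.7 to 93.5% in the other 9, against 1.93 to 3.33% in the 7. Mybpc1 took 47.3% in 5AF and 87.6 to 99.6% in the other 10, and Casq2 49.4 to 100% in all 11. Tnnc1, in contrast, had 0 to 2 reads in every one of the 11 while Tnnc2 had 43 to 264. Actn2, Myoz2 and Tnni1 had few reads there, and most exact intervals of their shares reached into the range of the 7 libraries, as for Actn2 with 28.6% in 1AF (18.4 to 40.6%) and Myoz2 with 10% in 1AF (1.23 to 31.7%), while Actn2 made up 82.1% in 15AF (63.1 to 93.9%).

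Some muscle genes were high where seminal vesicle genes were high. Mybpc1 had 26.8 to 40.0 CPM in 13AF, 15AF, 4AF, 6AF, 7AF and 9AF, in which seminal vesicle genes took 6.32 to 10.3% of reads, and 7.75 to 15.3 CPM in 1AF, 2AF, 3AF, 5AF and 8AF, in which they took at most 0.000335%. Casq1 had 4.92 to 9.51 CPM in the former and 0 to 1.96 CPM in the latter. Smpx had 3.50 to 6.93 CPM and 0 to 1.07 CPM. Tnnc2 had 19.1 to 33.6 CPM and 4.91 to 17.7 CPM. For these 4 genes the ranges did not overlap, while Tnnt3 had 0.229 to 3.81 CPM in the former and 0.571 to 24.1 CPM in the latter. Acta1, with 97.8 to 209 CPM and 58.1 to 101 CPM, and Neb, with 31.9 to 50.2 CPM and 2.62 to 67.7 CPM, also overlapped. The 4 genes were picked after their values were seen. The share of all genes with such a split was not computed, so nothing is read from their number. At 30 weeks all libraries with such reads were KO or A537T, so their presence and the genotype cannot be told apart except through 5AF and 8AF, the mutant libraries without them. Smpx had 46 and 29 reads in 4AF and 6AF but 12 in 5AF, all KO. In A537T it had 49 and 54 reads in 7AF and 9AF but 0 in 8AF, and WT had 2, 0 and 6. The part of seminal vesicle RNA in these levels was not tested.

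**Figure D5:**
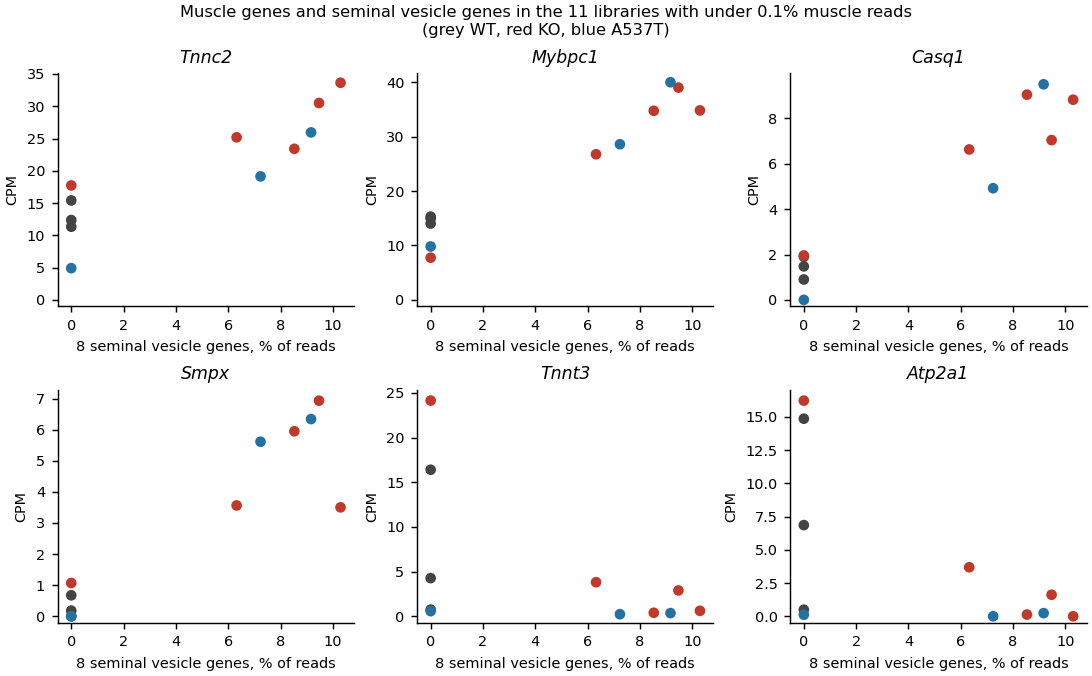
Level in CPM of 6 muscle genes (vertical axes) against the percent of reads on 8 seminal vesicle genes (horizontal axes) in the 11 libraries with under 0.1% muscle reads, coloured by genotype. Tnnc2, Mybpc1, Casq1 and Smpx are higher in the 6 libraries at 6.32 to 10.3%, and Tnnt3 and Atp2a1 are highest in 1AF and 5AF, which lie near 0%.

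Counterparts of the muscle genes that other tissues use were compared in the same fits, since they were not used in the choice. All 18 were measured. Jph2 also stands in the list of further skeletal muscle genes described below, and had 95.5, 102 and 180 CPM in WT libraries 10AF, 11AF and 12AF. The median change in KO at 10 weeks was 0.43, from -1.20 for Jph2 to 1.97 for Ryr3. None passed the adjustment with limma (adjusted p = 0.183 to 0.822) or edgeR, where 0% of all genes passed. The lowest limma adjusted p over all genes was also 0.183, so these values do not show that the counterparts were unchanged. At an unadjusted p under 0.05 there were 6 with limma (19.4% of all genes in either direction), and DESeq2 called 4 (4.74% of all genes): Eno1, Pgam1 and Jph2 lower and Atp2a3 higher. Atp2a2, the calcium pump of most tissues, had a normalized count of 3769 ± 285 in WT and 3466 ± 160 in KO (SD, n = 3), a change of -0.12 (SE 0.13, limma adjusted p = 0.605), beside -8.84 for Atp2a1. Actb, cytoplasmic actin, had 0.33 (SE 0.22, limma adjusted p = 0.417) beside -3.76 for Acta1. Ckb, the brain-type creatine kinase, had 1.27 (SE 0.57, limma adjusted p = 0.274) beside -5.17 for Ckm. Eno1, the enolase of most tissues, had -0.83 (SE 0.14, limma adjusted p = 0.183) beside -5.25 for Eno3. In A537T at 10 weeks the median of the 18 was 0.26. None passed with limma (adjusted p = 0.746 to 0.998) or edgeR, where 0% of all genes passed, or with DESeq2 (0.595% of all genes). With limma 0 had an unadjusted p under 0.05 (6.43% of all genes). At 30 weeks the medians were 0.20 in KO and 0.27 in A537T, with 5 genes at an unadjusted p under 0.05 in KO (11% of all genes) and 3 in A537T (13.6%). None passed the adjustment at that age with limma or edgeR (0% of all genes). DESeq2 called 0 in KO (1.93% of all genes) and 1, Atp2a3, in A537T (3.19%).

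Other lists were read from the same fits by their counts and medians. Of 46 further skeletal muscle genes, led by Myh4, Myh1 and Des, 45 were tested in KO at 10 weeks and all 45 were lower, with a median of -5.11. In A537T 44 of 46 were lower, with a median of -1.41. At 30 weeks 11 of 17 were lower in KO and 12 of 16 in A537T. Of the myogenic and neuromuscular genes, led by Mef2c, Myf6 and Musk, 4 of 12 were tested in KO at 10 weeks and had a median of -2.17, and 6 in A537T, with a median of -0.49. The heart muscle markers, led by Ryr2, Tnnt2 and Tnni3, summed to 10.7 to 71.3 CPM over the 18 libraries. Their sum was lowest in 12AF, where the 39 genes were highest. Ryr2, which is also among the counterparts, and Tnnt2 were lowest there (5.81 and 1.28 CPM). Tnni3 was not, with 2.27 CPM there and 0.862 CPM in 14AF. Smooth muscle genes, led by Myh11, Acta2 and Mylk, had higher mean log2 levels in KO and in A537T at 10 weeks for all 8. Their medians were 1.01 and 0.94, the direction opposite to the 39 genes. The groups overlapped for all 8 in both comparisons. Summed, they had 5457, 2088 and 1007 CPM in WT libraries 10AF, 11AF and 12AF. KO library 14AF had 4454 CPM, and A537T libraries 16AF, 17AF and 18AF had 2827, 4713 and 8868 CPM. Adipocyte genes, led by Plin4, Cfd and Cidec, were all 7 lower in KO (median -0.89) and all 7 higher in A537T (0.52). Urothelium genes, led by Upk1a, Upk1b and Upk3a, had medians of -0.40 and 1.04. They summed to 112, 212 and 448 CPM in A537T libraries 16AF, 17AF and 18AF, against 114 to 158 CPM in WT. The seminal vesicle genes, led by Svs2, Svs5 and Pate4, had medians of 5.02 and -1.96. The prostate epithelium genes had medians of -0.19 and 0.09 but wide ranges. These ran from -4.93 for Spink1 to 1.25 for Pbsn in KO, and from -1.40 for Msmb to 1.32 for Pbsn in A537T. Whether any of these tissues had a part in the levels of the 39 genes was not tested.

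The genes most like the summed level of the 39 were sought among 15458 others with a mean of at least 1 CPM. The 10 highest had an r of 0.981 to 0.985 over 18 libraries that share the split into 7 and 11 described above. They were Ano5, Ppp1r3a, Mypn, Myo18b, Hrc, Alpk3, Rpl3l, Phkg1, Smyd1 and Sypl2. Ppp1r3a, a glycogen-targeting phosphatase subunit, had 94.7, 163 and 316 CPM in WT at 10 weeks, 0.809, 45.8 and 0.304 CPM in KO, and 91.3, 67.0 and 46.1 CPM in A537T. Over the list of 46 further skeletal muscle genes the median r was 0.962 for the 45 with a mean of at least 1 CPM, and over all genes compared it was -0.13. Of the lists of other tissues, adipocyte genes had a median r of 0.617 and urothelium genes of 0.323. For prostate epithelium, heart, smooth muscle and seminal vesicle genes it was -0.11, -0.00572, -0.08 and 0.0621. The part of fat or urothelium in the level of the 39 genes was not tested.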

How the data were processed

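RNA of the ventral and lateral lobes was sequenced on an Illumina NovaSeq after TruSeq library preparation. The authors trimmed reads with Trim Galore 0.4.1 and cutadapt 1.18, aligned them with STAR 2.7.3a to a mouse GRCm38 genome masked for nuclear mitochondrial sequence, estimated gene counts with Salmon in stranded mode and normalized them with DESeq2 1.26. The deposited signal values are these counts divided by 1 size factor per library, in 4 tables of 6 libraries that were normalized separately. The deposited files of the authors' own comparisons hold log2 fold changes and s-values and were not used.

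Column names carry a library number but no genotype and no replicate number. Columns found in both tables of an age were taken as WT and the others as the mutant line of their table. Unmapped columns numbered 0. Whole reads were recovered from the steps of the low values, for 99.990513 to 100% of values within 0.05 of a whole number. Salmon counts are estimates, which DESeq2 rounds, and the reads of a WT library differed between its tables for 53.6 to 64.1% of genes, but the summed reads of the 39 genes by only 0.318 to 1.21%. Levels across ages are recovered reads scaled to CPM, with WT taken from the table shared with KO. Levels per kilobase use the summed exon length of the annotation at hand (GRCm38), which is not the release the authors used. Of 55469 gene IDs, 54450 matched a symbol exactly and 55107 without the version.

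Mutant and WT libraries were compared with limma 3.58.1 on log2(normalized count + 1) for genes with a mean of at least 10, with Benjamini-Hochberg adjustment over all of them and a threshold of 0.05. On recovered reads, edgeR 4.0.16 and DESeq2 1.42.0 were alternatives. An adjusted p that DESeq2 left blank (5 to 322 genes, 0 of the 39) stayed out of the counts. Each fit was tested on simulated data with known changes and the same small dispersion for all genes. The 39 genes varied far more within groups, so that test does not show how the fits behave for them. Shares of pairs have exact Clopper-Pearson 95% intervals, and 0 reads were set to a floor of 3 reads for limits, both for counting error only. Other alternatives were a pseudocount of 8, a minimum mean of 1 or 100, scaling to equal totals with and without the 39 genes, and leaving out each library. The named genes are all 39, Elac2, the isoform pairs, the counterparts in other tissues, the 3 most abundant genes of each marker list (1 list is not reported here) and the 10 genes most like the summed level. The 39 genes, the lists and the tests were chosen with earlier results of these data known. R 4.3.3 and Python 3.11.15 were used.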

Additional observations from a re-analysis of the deposited data

Results flagged for a closer look

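In 5 genes the KO libraries lay below all WT libraries at 10 weeks and above all of them at 30 weeks. Of all genes tested, 14.3% lay below without overlap at 10 weeks and 7.92% above at 30 weeks. The share of all genes that did both was not computed, so nothing is read from the count. The log2 fold change at 30 weeks exceeded that at 10 weeks by 4.14 for Acta1, 4.81 for Tnnc2, 6.49 for Ckm, 6.11 for Smpx and 12.48 for Pvalb. The value of Pvalb depends on the 1 added before taking logs, since WT was at 0 reads at 30 weeks. The difference between the ages was not tested, since the 39 genes were chosen on these same contrasts. Seminal vesicle reads were at most 0.000335% in the 3 WT libraries at 30 weeks and 8.53%, 7.13e-05% and 6.32% in KO libraries 4AF, 5AF and 6AF, and their part in the result was not tested. Groups of 3 libraries were not searched for single outlying samples.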

How the results depend on the processing

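No paired analysis was possible because the columns carry no replicate number. The median change of the 39 genes kept its sign at 10 weeks under every alternative tried, but at 30 weeks it turned negative in KO without 2AF and without 5AF (-0.20 and -0.07) and positive in A537T without 1AF and with a minimum mean of 100 (0.15 and 0.07). With DESeq2, adjusted p under 0.05 called 2, 6, 2 and 4 of the 39 genes in KO and A537T at 10 weeks and in KO and A537T at 30 weeks, where limma called 0. Leaving out 1 library moved that count from 0 to 36 in KO at 10 weeks (36 without 14AF, 14 without 10AF), from 0 to 4 in KO at 30 weeks (4 without 5AF) and from 0 to 3 in A537T at 30 weeks (3 without 8AF), and in A537T at 10 weeks it stayed at 0. These counts, and the next values marked as added, were chosen after seeing the data. The median change ran from -7.48 to -5.02, from -2.15 to -1.07, from -0.20 to 0.63 and from -1.03 to 0.15 in the same order of comparisons. With edgeR the medians were -3.63, -1.67, 0.38 and -0.32. Scaling to equal totals moved the median of all genes to 0.20 and that of the 39 to -5.72 in KO at 10 weeks, and to 0.15 and -1.51 in A537T. Without Ttn, an added choice, the median share of reads was 1.18% in A537T at 10 weeks and 0.0279% in KO at 30 weeks. The median likeness of 0.971 became 0.821 by Spearman's rho, 0.363 at 30 weeks and, in the added set of 11 libraries, 0.242. Slow reads per 100 fast reads, with libraries under 50 slow reads left out, were 3.03 in place of 3.08 for troponin T and 3.01 in place of 1.76 for troponin C. Under the same rule, reads of Actn2 per 100 of Actn3 were 20.9 in place of 24.5. At 30 weeks, with library totals like those at 10 weeks, the levels of 14 and 16 of the 39 genes were under the minimum mean. At 10 weeks the median change of the seminal vesicle genes in KO was 1.91 with edgeR instead of 5.02, and in A537T it was -4.36 instead of -1.96. The small medians of the urothelium genes in KO and of the heart genes in A537T at 30 weeks changed sign with edgeR (0.0150 and -0.10). The lower bounds for Pvalb and Xirp2 without 1 library are added choices too.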

Other observations

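Myosin heavy chains outside the 39 genes also differed in A537T library 18AF at 10 weeks. Myh8, the perinatal myosin, had 281 CPM there, 110 CPM in 17AF and at most 23.4 CPM in the other 16 libraries. Myh7, the myosin of slow fibres and heart, had 0.257 CPM in 18AF, 127 and 110 CPM in 16AF and 17AF and 241 to 712 CPM in the WT libraries of this age. Tnnt2, the troponin T of heart and developing muscle, had 43.2 CPM in 18AF and at most 14.2 CPM elsewhere. Des, the intermediate filament of smooth and striated muscle, had 981 CPM in 18AF and 278 to 698 CPM in the other 10-week libraries. These 4 genes were taken from the marker lists after their values were seen, and no test was made on 1 library.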
